A study of Rattus norvegicus with 6 samples.

Results

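Gpa33 encodes glycoprotein A33, a cell surface antigen of the immunoglobulin superfamily known from intestinal epithelium, and it is described here with 9 other genes of intestinal or gastric epithelium in the pancreatic duct glands of the rat. The 10 genes were taken by symbol from 15675 symbols, and all 10 were found. Gpa33 was chosen because it was lower in every HIP library than in every wild-type library. The other 9, Cdh17, Vil1, Lgals4, Tspan8, Fabp1, Fabp2, Cdx2, Gkn2 and Ctse, were chosen by what they are known for. The choice was made with earlier results of these data known, to ask whether intestinal or gastric genes differ along with Gpa33. RNA of duct glands, cut out by laser microdissection after recognition by morphology, was sequenced from wild-type rats (WT26, WT1 and WT4) and from HIP rats (HIP30, HIP2 and HIP3), 3 libraries each, all of the Sprague-Dawley strain. HIP rats express human islet amyloid polypeptide from a transgene, known to be driven in beta cells by an insulin promoter, so the gland cells are not its intended site of expression. The series calls the HIP animals pre-diabetic and a model of type 2 diabetes. The labels give no age or treatment, and they do not state whether the libraries of a group are from separate animals. P-values therefore measure only how far the libraries of a group differ, which may be a technical spread.

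Epithelia of the stomach, intestine and pancreatic ducts all derive from gut endoderm, and pancreatic duct glands are mucin-producing pouches in the walls of the larger ducts. Intestinal epithelium is known for an apical brush border built on villin, for surface proteins such as A33 antigen and LI-cadherin, and for the transcription factor Cdx2, which maintains intestinal identity. Cdx factors are known activators of Gpa33 and Cdh17 in intestinal cells. Stomach epithelium is known for gastrokines, pepsinogens, trefoil factors and the aspartic protease cathepsin E.

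Libraries held 15141136 to 17574682 reads on the listed genes, and values below are CPM, read counts scaled to a common total, where 1 read was worth 0.0569 to 0.066 CPM. Levels are compared within a gene only, since no transcript lengths were applied. The glands carried epithelial transcripts throughout. The duct keratin Krt19 ran from 1540 to 6992 CPM, highest in WT26, and the epithelial adhesion gene Epcam from 1460 to 2550 CPM over the 6 libraries. Summed islet markers (11 genes) ran from 0 to 11831 CPM in wild-type and from 289 to 4953 CPM in HIP libraries, with Ins1 and Gcg both without a read in WT26 and HIP30. Summed acinar markers (12 genes) ran from 24.6 to 98.9 CPM in wild type and from 34.8 to 131 CPM in HIP. They were likewise highest in WT4 and HIP3, and Prss1 and Cpa1 were without a read in WT26 and HIP30. WT4 had no read for 4.29% of genes, against 11.7% to 18.0% in the other libraries. HIP30 stood apart in cell division genes. It had no read of 8 of the 12 cell division markers, among them the proliferation antigen Mki67, which stood between 733 and 961 CPM in the wild-type libraries, against 0 CPM in HIP30, 135 CPM in HIP2 and 1152 CPM in HIP3. With no read, the level in HIP30 could be up to 0.198 CPM, the value of 3 reads.

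Gpa33 was detected with 112, 98.4 and 64.1 CPM in the wild-type libraries, and with 3.63, 17.8 and 30.3 CPM in the HIP libraries, in the order WT26, WT1, WT4 and HIP30, HIP2, HIP3 that is kept for every gene below. The lowest wild-type value lay above the highest HIP value, and the HIP libraries were themselves spread 8.35-fold from lowest to highest, against 1.75-fold in wild type. The means were 91.6 ± 24.8 CPM in wild type and 17.3 ± 13.4 CPM in HIP (SD, n = 3), so the HIP mean was 18.9% of the wild-type mean. These values rest on 1973, 1716 and 1014 reads in wild type and 55, 287 and 507 reads in HIP. The log2 difference of HIP from wild type was -2.88 with a standard error of 0.73, given as a description because this contrast chose the gene. A difference at or below this value was reached by 122 of the 12102 genes with enough reads to be tested, Gpa33 included. In tissue RNA such as this, fewer cells that express a gene and less RNA per cell cannot be told apart.

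**Figure D1:**
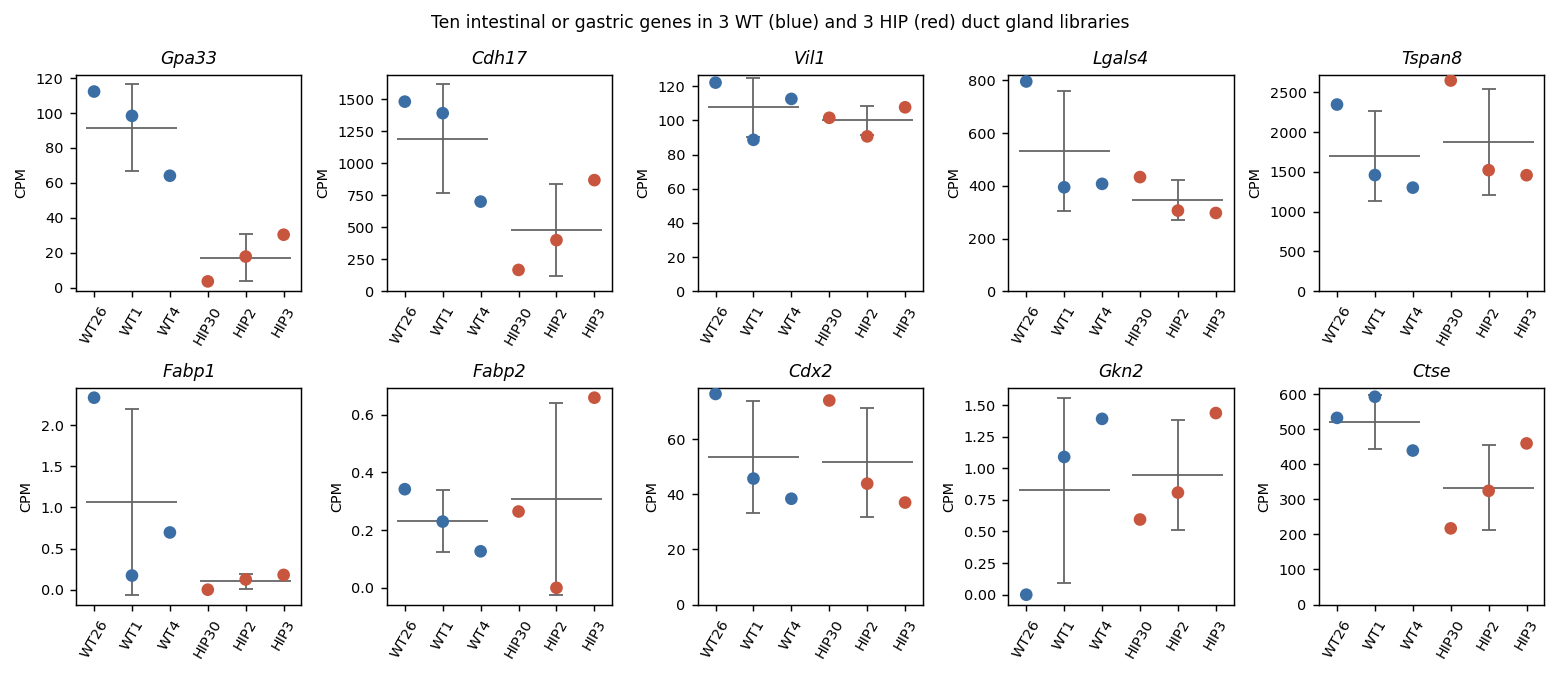
Levels of the 10 genes in CPM (vertical axis, linear) in the 6 libraries (horizontal axis), with wild type in blue and HIP in red, and with the group mean as a line and the SD as a bar (n = 3). Gpa33 runs from 64.1 to 112 CPM in wild type and from 3.63 to 30.3 CPM in HIP, while the points of the other 9 genes overlap between the groups.

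The Gpa33 values were also set against epithelial transcripts of the same library, a scale added after the data were seen. They are given as a description, because the separation of these same reads chose the gene. Per 1000 reads of Epcam there were 44.0, 61.5 and 42.1 reads of Gpa33 in WT26, WT1 and WT4, and 1.84, 12.2 and 19.3 in HIP30, HIP2 and HIP3. Per 1000 reads of Cdh1, the epithelial cadherin, there were 38.0, 33.2 and 28.6 in wild type and 1.89, 7.86 and 12.4 in HIP. Of all tested genes 1.72% were lower in every HIP library per Epcam read, and 1.6% per Cdh1 read, shares that do not test Gpa33. Lgals4 was lower in every HIP library per Epcam read, with 312, 247 and 268 reads in wild type and 220, 210 and 188 in HIP per 1000, and overlapped per Cdh1 read. Tspan8 was higher in every HIP library per Epcam read, as were 6.07% of all tested genes, with 920, 913 and 856 in wild type and 1344, 1042 and 925 in HIP, and it overlapped per Cdh1 read. Cdh17, Ctse, Cdx2 and Vil1 overlapped on both scales. Epcam itself overlapped between the groups, at 2550, 1600 and 1521 CPM in wild type and 1971, 1460 and 1576 CPM in HIP.

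The sequences upstream of Gpa33 and of 2 of the members with lower HIP means, Ctse and Lgals4, are shown. Cdx and HNF4 factors are known regulators of intestinal genes. Each run, from RefSeq on the GRCr8 build, spans 250 bases before to 50 bases after the gene's start and is written 5′ to 3′ along the gene's strand. Capitals mark matches, on either strand, to CAATAAA or CCATAAA for Cdx, CAAAGTC for HNF4 and AGATAAG for GATA factors. Gpa33 lies at chr13:80913869-80914168 (plus strand), Ctse at chr13:45643965-45644264 (plus strand) and Lgals4 at chr1:93252035-93252334 (plus strand).
Gpa33: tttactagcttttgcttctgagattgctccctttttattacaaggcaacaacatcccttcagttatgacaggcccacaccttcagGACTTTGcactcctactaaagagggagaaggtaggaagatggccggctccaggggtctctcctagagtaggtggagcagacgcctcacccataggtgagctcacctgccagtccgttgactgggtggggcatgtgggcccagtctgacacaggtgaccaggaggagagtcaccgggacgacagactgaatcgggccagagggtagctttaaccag
Ctse: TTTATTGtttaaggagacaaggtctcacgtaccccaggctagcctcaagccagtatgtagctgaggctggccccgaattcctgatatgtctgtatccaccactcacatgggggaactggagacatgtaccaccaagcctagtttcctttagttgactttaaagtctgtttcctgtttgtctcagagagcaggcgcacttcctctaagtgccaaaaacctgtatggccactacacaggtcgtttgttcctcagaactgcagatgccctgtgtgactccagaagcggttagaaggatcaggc
Lgals4: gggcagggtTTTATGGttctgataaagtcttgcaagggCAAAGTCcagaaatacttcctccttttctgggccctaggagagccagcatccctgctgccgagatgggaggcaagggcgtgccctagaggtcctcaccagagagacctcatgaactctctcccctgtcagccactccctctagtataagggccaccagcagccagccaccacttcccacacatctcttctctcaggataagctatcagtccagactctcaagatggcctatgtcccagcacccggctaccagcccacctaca

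The Gpa33 window held 1 HNF4 match and no Cdx match, the Ctse window 1 Cdx match and the Lgals4 window 1 of each, with no overlap between matches. Of the 9 members with a window, 3 held a Cdx match (Lgals4, Fabp1 and Ctse), 2 an HNF4 match (Gpa33 and Lgals4) and 2 a GATA match (Fabp2 and Gkn2). Vil1, Cdx2 and Tspan8 held no match of these kinds, and Cdh17 was the member without a window. Over 33469 windows of the same length the shares were 7.44% for Cdx, 4.61% for HNF4 and 2.87% for GATA. A match describes letters only and is not a binding site. The HNF4 genes themselves overlapped between groups. Hnf4a stood at 725, 646 and 430 CPM in wild type and at 396, 420 and 635 CPM in the HIP libraries.

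Of the 10 genes 8 had enough reads to be tested, and none passed. The comparison asked whether the glands differ between HIP and wild-type rats. By limma 0 of 8 members and 0 of 12102 genes (0%) passed a Benjamini-Hochberg adjusted p of 0.05. Before adjustment, 792 genes (6.54%) had a limma p under 0.05. The limma-voom test called 0 as well, with 914 before adjustment. Of the 7 tested members other than Gpa33, 5 had a negative and 2 a positive difference, and their median was -0.17 (log2) against 0.01 over all tested genes. Gpa33, which the contrast chose, was the 1 member lower in every HIP library, a pattern found in 3.86% of tested genes, and 0 members were higher in every HIP library, against 6.14%.

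Cdh17, which encodes the intestinal adhesion protein LI-cadherin, came nearest to Gpa33. It stood at 1482, 1392 and 701 CPM in wild type and at 167, 399 and 868 CPM in the HIP libraries. HIP3 thus lay above WT4, and the groups overlapped, while HIP30 and HIP2 were below all wild-type libraries. The means were 1191 ± 427 CPM in wild type and 478 ± 358 CPM in HIP (SD, n = 3). The log2 difference was -1.62 (standard error 0.61, limma Benjamini-Hochberg adjusted p = 0.691).

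The values of Vil1 and Tspan8 overlapped between the groups. Vil1, the actin-bundling villin of microvilli, stood at 122, 88.7 and 113 CPM in wild type and 102, 90.7 and 108 CPM in HIP, so all HIP values lay inside the wild-type range. Its log2 difference was -0.17 (standard error 0.19, limma adjusted p = 0.854), and the 95% interval allowed a HIP level of 0.658 to 1.20 times wild type. Tspan8, a tetraspanin of digestive epithelia, stood at 2347, 1460 and 1303 CPM in wild type and 2649, 1522 and 1458 CPM in HIP. HIP30 held the highest value, in contrast to its lowest value for Gpa33. The Tspan8 difference was 0.06 (standard error 0.35, limma adjusted p = 0.982), with an interval of 0.598 to 1.81 times wild type, and the sign changed without WT1, without WT4 or without HIP30.

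Lgals4, the galectin that binds apical glycoproteins of gut epithelium, stood at 796, 395 and 408 CPM in wild type and 433, 306 and 297 CPM in HIP. WT26 was higher than the other 5 libraries, and HIP30 lay above WT1 and WT4. The difference was -0.64 (standard error 0.31, limma adjusted p = 0.691), and it was -0.30 without WT26. Cdx2 was detected in every library, at 76.5, 45.7 and 38.4 CPM in wild type and 74.1, 43.9 and 37.0 CPM in HIP. The groups covered nearly the same range, with WT26 and HIP30 high in each. Cdx2 differed by -0.13 (standard error 0.34, limma adjusted p = 0.952), within an interval of 0.533 to 1.58 times wild type, and its sign turned without WT26 or HIP3.

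The fatty acid binding proteins of the intestine were near the detection limit. Fabp1, the liver and intestinal form, had 41, 3 and 11 reads in WT26, WT1 and WT4 and 0, 2 and 3 reads in HIP30, HIP2 and HIP3. Fabp2, the intestinal form, had 6, 4 and 2 reads in wild type and 4, 0 and 11 in HIP. Neither passed the filter on low values. With no read, the level could be up to 0.198 CPM for Fabp1 in HIP30 and 0.186 CPM for Fabp2 in HIP2. These limits cover counting error only.

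The gastric members were Ctse and Gkn2. Ctse, cathepsin E, an intracellular aspartic protease of gastric epithelium, stood at 533, 593 and 440 CPM in wild type and 217, 325 and 460 CPM in HIP. HIP30 and HIP2 were below all wild-type libraries, and HIP3 was above WT4. The difference was -0.77 (standard error 0.32, limma adjusted p = 0.691). Gkn2, a gastrokine secreted by gastric surface cells, had 0, 19 and 22 reads in WT26, WT1 and WT4 and 9, 13 and 24 reads in HIP30, HIP2 and HIP3. Its difference was 0.70 (standard error 1.07, limma adjusted p = 0.910), and it was -0.47 without WT26, the library without a read.

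Gpa33, Cdh17 and Ctse shared the order of their HIP libraries, with HIP30 lowest, HIP2 next and HIP3 highest, as did Fabp1 and Gkn2 at their few reads. Lgals4, Tspan8 and Cdx2 had the reverse order, with HIP30 highest, HIP2 next and HIP3 lowest. Among the HIP libraries Vil1 and Fabp2 were lowest in HIP2. How many of all tested genes follow either order was not counted. Of the 7 tested members other than Gpa33, HIP30 was the lowest of the 6 libraries for Cdh17 and Ctse (28.6%), where it was the lowest for 17.9% of all tested genes. WT26 was the highest library for 4 of the 7, Cdh17, Vil1, Lgals4 and Cdx2 (57.1%), against 18.3% of all tested genes. The cell division markers were in the HIP order of Gpa33, with HIP30 the lowest library for 12 of 12. Their sum in HIP3, 2788 CPM, lay inside the wild-type range of 2082 to 2953 CPM, where Gpa33 was below all wild-type libraries. Fibroblast markers had HIP30 lowest for 10 of 12. Summed fibroblast markers (12 genes) were 1565 to 2546 CPM in wild type and 588, 916 and 1881 CPM in the HIP libraries, with all 12 detected in every library. Their part in the member values was not tested. Between the libraries numbered above 9 in their titles, HIP30 and WT26, the differences were -5.09 for Gpa33, -3.34 for Cdh17 and -1.48 for Ctse. Between those numbered 1 to 4 they were -1.78, -0.76 and -0.42. The titles do not call these numbers a batch.

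Leaving out HIP30 brought the Gpa33 difference to -1.96, and leaving out WT26 gave -2.70. Gpa33 stays lower in every HIP library whichever library is left out, because that separation chose it. Without HIP30 the differences of Cdh17 and Ctse were -0.97 and -0.45. Of the other members, Lgals4 was then lower in every HIP library, beside 6.64% of tested genes. Leaving out HIP3 gave -3.56 for Gpa33, -2.25 for Cdh17 and -1.08 for Ctse. Cdh17 and Ctse were then lower in every HIP library, beside 13.7% of genes. Cdh17 and Ctse were also lower without WT4, beside 10.4% of genes. Without WT1 Vil1 was lower in every HIP library, beside 6.68% of genes, and the Vil1 difference was -0.28. It was -0.06 without WT26, -0.11 without HIP2 and -0.27 without HIP3.

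**Figure D2:**
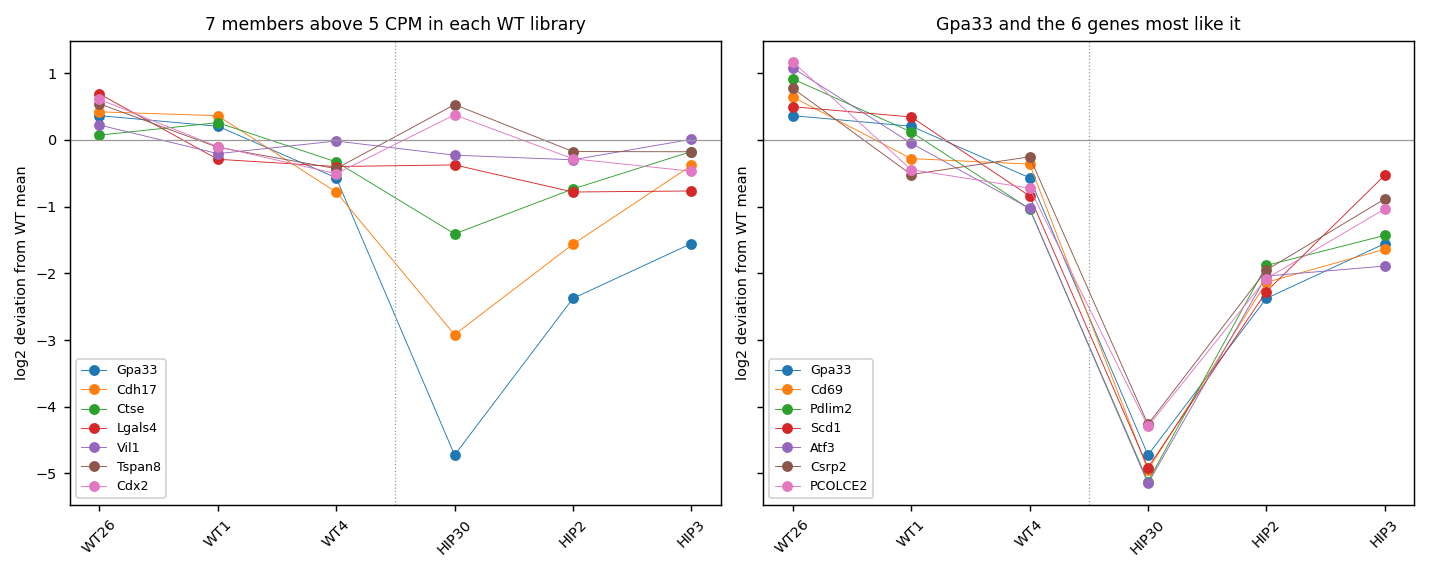
Log2 deviation of each library (horizontal axis) from the wild-type mean of the same gene (vertical axis, log2 of CPM plus pseudocount), for 7 members on the left and for Gpa33 with the 6 genes most like it on the right. Thin lines join the points of a gene and carry no order. In HIP30 Gpa33 stands at -4.72, Cdh17 at -2.92 and Ctse at -1.41, while Tspan8 and Cdx2 stand at 0.53 and 0.38.

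Likeness to Gpa33 was measured as the root mean square difference between profiles centred on their own mean over the 6 libraries, among 10007 other genes with a mean of at least 5 CPM. The 6 nearest genes were Cd69, a lymphocyte activation antigen (0.28), Pdlim2 (0.39), Scd1, a stearoyl-CoA desaturase (0.42), Atf3, a transcription factor induced by stress (0.44), Csrp2 (0.45) and PCOLCE2 (0.48), all in log2 units. Cd69 stood at 16.7, 8.54 and 8.98 CPM in wild type and 0.264, 2.48 and 3.41 CPM in the HIP libraries. Of 10 tested leukocyte markers 10 had a positive difference, with a median of 0.69, and 0 passed limma's adjusted threshold. Their summed level, over 11 genes, ran from 202 to 1027 CPM in wild-type and from 513 to 2820 CPM in HIP libraries. Most of the sum in HIP30 and HIP2 was Mpeg1, a macrophage gene, at 0, 169 and 192 CPM in wild type and 2097, 1979 and 141 CPM in HIP. Itgam, an integrin of myeloid cells, was the leukocyte marker higher in every HIP library, as were 6.14% of all tested genes. It stood at 1.93, 2.64 and 5.25 CPM in wild type and at 10.5, 6.46 and 10.2 CPM in HIP. Cd3e, a T cell marker, had no read in WT26, and Ms4a1, a B cell marker, had none in 4 libraries. Their part in the Cd69 values was not tested. Atf3 stood at 95.5, 42.7 and 24.1 CPM and at 1.32, 11.6 and 12.4 CPM. Of the members Cdh17 ranked 56 of 10007 (0.70) and Ctse 397 (1.23), while Lgals4 ranked 1795 (1.58), Vil1 2789 (1.65), Cdx2 6301 and Tspan8 7205. The median distance was 1.77 over all compared genes and 1.68 over the 12 cell division markers. The ranks are a description, because they are measured against the values that chose Gpa33.

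Intestinal and gastric genes beyond the 10 were taken from 5 lists, in which 72 distinct genes were tested. The lists were chosen with earlier results of these data known, so their shares are a description. By limma 0 passed the adjusted threshold and 16 had an unadjusted p under 0.05 (22.2%, against 6.54% of all tested genes). There were 33 with a negative and 39 with a positive difference, with a median of 0.21 against 0.01 over all tested genes, and without TMM factors the split was 30 and 42. In all 1 of the 72 was lower in every HIP library (1.39%, against 3.86% of all tested genes). In every HIP library 7 were higher (9.72%, against 6.14%). Gucy2c, described below, is counted in the 7, the 16 and the 39. It passed the filter on low values only through its HIP libraries.

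Brush border genes differed in both directions. Of 20 genes in the files 15 were tested, 9 with a negative and 6 with a positive difference, with a median of -0.15. Anks4b, which links proteins between microvilli, was the gene lower in every HIP library, as were 3.86% of all tested genes. It stood at 68.2, 34.1 and 27.8 CPM in wild type and 23.7, 19.9 and 24.8 CPM in HIP. Its difference was -0.89 (standard error 0.36, limma adjusted p = 0.691). Myo1a, the brush border myosin, stood at 85.3 ± 17.7 CPM in wild type and 53.5 ± 11.97 CPM in HIP (SD, n = 3), and Myo7b, another microvillar myosin, at 401, 398 and 450 and at 482, 434 and 379 CPM. Dpp4, an apical peptidase, was on the other side, at 21.0, 71.3 and 151 CPM in wild type and 377, 309 and 87.9 CPM in the HIP libraries. Several hydrolases of mature enterocytes were scarce. Alpi, the intestinal alkaline phosphatase, and Mep1a, a meprin, had no read in WT26, WT1, HIP30 and HIP2, and at most 0.190 CPM in the other libraries. Lct, the lactase gene, reached 2.75 CPM in HIP3 and had no read in HIP30.

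Absorption genes were spread widely in both directions. Of 22 genes in the files 14 were tested, 9 negative and 5 positive, with a median of -0.44. Slc10a2, with a positive difference, stood at 14.7, 20.9 and 21.2 CPM in wild type and 23.4, 32.6 and 27.3 CPM in HIP. It was higher in every HIP library, as were 6.14% of all tested genes. Npc1l1, the cholesterol uptake transporter of the apical membrane, stood at 358, 239 and 40.8 CPM in wild type and at 0, 13.2 and 61.0 CPM in the HIP libraries. Guca2a, the peptide guanylin, stood at 483, 239 and 69.5 CPM and at 10.1, 62.5 and 144 CPM. In both genes WT4 lay below HIP3. Guca2b, the peptide uroguanylin, stood at 42.1, 31.5 and 13.8 CPM and at 2.44, 9.01 and 37.6 CPM. Gucy2c, the receptor of both peptides, had 1, 0 and 6 reads in wild type and 19, 24 and 13 reads in HIP. It passed the filter on low values only through its HIP libraries, so no difference is given for it. It is nevertheless counted among the 5 positive genes and in the median. The log2 differences were -5.07 for Npc1l1 (standard error 2.05) and -2.22 for Guca2a (1.04), each with a limma adjusted p of 0.691, and the size for Npc1l1 depends on the pseudocount because HIP30 had no read. Apoa4, an apolipoprotein of chylomicrons, had no read in 5 libraries and 0.442 CPM in WT4.

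**Figure D3:**
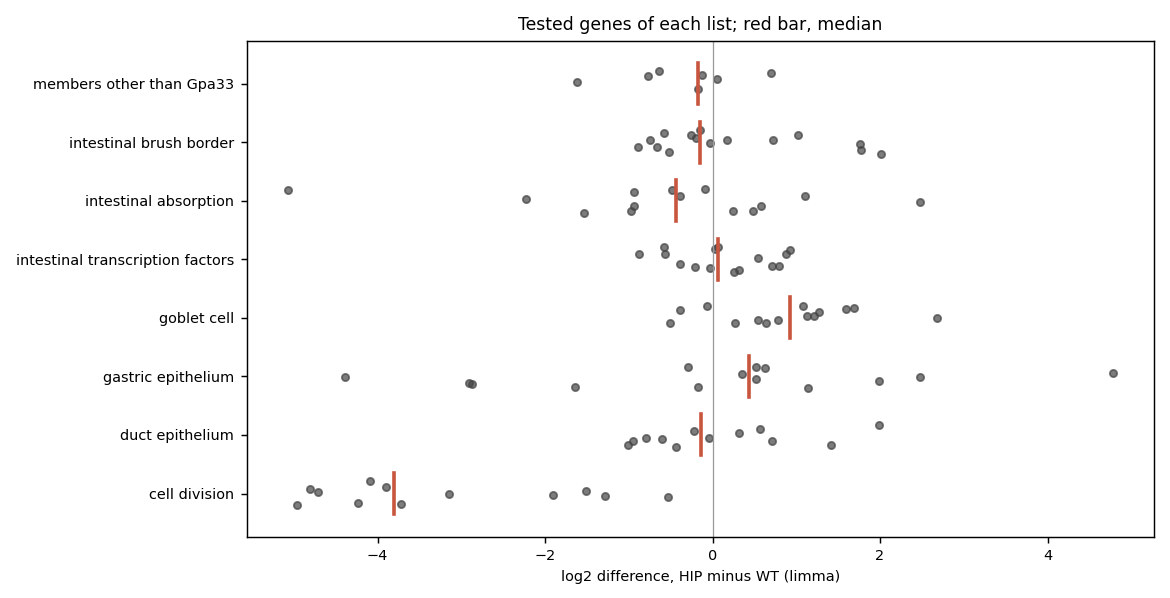
Log2 differences between HIP and wild type (horizontal axis, limma) of the 7 tested members other than Gpa33 and of the tested genes of 7 lists (rows), 1 point per gene, with the median as a red bar. The median of those members lies at -0.17, the goblet cell median at 0.93 and the cell division median at -3.81.

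Genes of gut identity, transcription factors together with Lgr5 and Olfm4, had a median difference near that of all tested genes. Of 15 tested genes 6 had a negative and 9 a positive difference, with a median of 0.07. Klf4, a factor of differentiating gut epithelium, stood at 264, 175 and 140 CPM in wild type and 76.4, 100.4 and 160 CPM in HIP, again with HIP30 lowest and HIP3 above WT4. Lgr5, a stem cell receptor, stood at 31.2, 42.6 and 102 CPM and at 114, 103 and 92.2 CPM. The differences were -0.87 and 0.93 with standard errors of 0.36 and 0.37 (limma, adjusted p = 0.691 for each).

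Most goblet cell genes had a positive difference, and 0 passed limma's adjusted threshold. Of 14 tested genes 11 had a positive and 3 a negative difference, with a median of 0.93, and the summed level overlapped between the groups, at 2367 to 4441 CPM in wild type and 3865 to 4750 CPM in HIP. By single genes, HIP30 was the highest library for 10 of the 14 (71.4%), against 32.6% of all tested genes. Spdef, a transcription factor of goblet cells, stood at 6.03, 8.37 and 19.5 CPM in wild type and 73.7, 36.9 and 11.9 CPM in the HIP libraries, so that HIP3 lay inside the wild-type range. Retnlb, a secreted product of goblet cells, stood at 9.45, 13.2 and 3.92 CPM and at 67.4, 43.0 and 6.82 CPM. Clca1, a secreted regulator of chloride channels, and Ern2, a stress sensor of mucin-secreting cells, were the 2 goblet genes higher in every HIP library. That pattern was found in 6.14% of all tested genes. Ern2 stood at 76.9 ± 6.06 CPM in wild type and 128 ± 28.5 CPM in HIP (SD, n = 3), a difference of 0.64 (standard error 0.19, limma adjusted p = 0.691). Fcgbp, a mucus protein, went the other way, at 3117, 2867 and 1000.1 CPM in wild type and 1488, 1771 and 1780 CPM in HIP, a difference of -0.38. Bcas1 (-0.51) and Spink4 (-0.07) were the other two with a negative difference.

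Gastric genes held both orders. Of 14 tested genes 8 had a positive and 6 a negative difference, with a median of 0.44. Tff1, a trefoil peptide of gastric surface cells, stood at 283, 268 and 66.8 CPM in wild type and at 0, 26.03 and 188 CPM in the HIP libraries. Tff2, the trefoil peptide of gastric glands, stood at 0.171, 1.32 and 1.20 CPM and at 10.1, 4.22 and 0.778 CPM. HIP30 was thus lowest for Tff1 and highest for Tff2. Aqp5, a water channel, was the gastric gene higher in every HIP library, as were 6.14% of all tested genes. It stood at 0, 22.9 and 93.0 CPM in wild type and 301, 173 and 116 CPM in HIP. Psca, a small surface antigen, had at most 0.778 CPM in HIP and reached 5.63 CPM in wild type, where WT4 had 0.632 CPM. Parietal and chief cell genes were low. Atp4b, Chia and Pga5 stayed at or below 1.07 CPM in every library, while Gif reached 1.92 CPM and Atp4a, a subunit of the proton pump, 1.55 CPM. Pgc, a pepsinogen, stood at 0, 0.287 and 1.96 CPM in wild type and 6.94, 4.47 and 0.479 CPM in HIP.

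**Figure D4:**
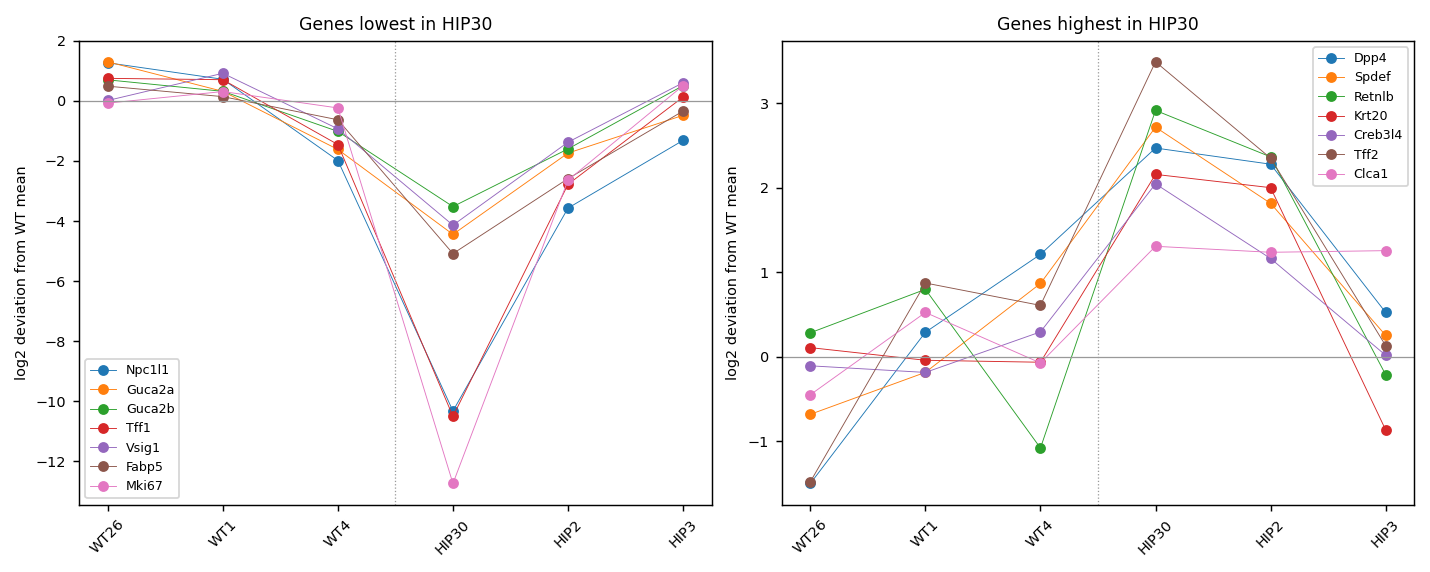
Log2 deviation of each library (horizontal axis) from the wild-type mean of the same gene (vertical axis, log2 of CPM plus pseudocount) for 7 genes that were lowest in HIP30 (left) and 7 that were highest in HIP30 (right), chosen after their values were seen. Thin lines join the points of a gene, the scales of the panels differ, and the depth of the HIP30 points of Npc1l1, Tff1 and Mki67, all at 0 reads, depends on the pseudocount.

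Relatives of the members were given by family, in a list also chosen with earlier results of these data known. Of 32 tested relatives 19 had a negative and 13 a positive difference, with a median of -0.11, and 0 passed limma's adjusted threshold, with 5 at an unadjusted p under 0.05 (15.6%, against 6.54% of all tested genes). Vsig1, the gastric relative of A33 antigen also called A34, stood at 25.7, 47.1 and 14.5 CPM in wild type and 1.52, 10.4 and 39.6 CPM in the HIP libraries. Cxadr, another junction protein of the same family, stood at 94.4, 94.4 and 55.4 CPM and at 113, 77.1 and 80.3 CPM. Vsig1 therefore had its lowest value in HIP30 as Gpa33 did, and Cxadr its highest. Cdh2, the neural cadherin, stood at 0.854, 6.31 and 20.0 CPM in wild type and 58.0, 43.8 and 13.1 CPM in HIP, on the other side from Cdh17. Fabp5, the epidermal fatty acid binding protein, stood at 93.9, 72.1 and 47.0 CPM and at 2.11, 11.7 and 54.0 CPM.

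The galectins and tetraspanins beside Lgals4 and Tspan8 mostly overlapped between groups. Lgals3, a galectin of many epithelia, stood at 1198, 453 and 327 CPM in wild type and 239, 228 and 341 CPM in HIP, with WT26 far above the others. Lgals2, another galectin of gut epithelium, stood at 344, 579 and 360 CPM and at 334, 472 and 586 CPM. Tspan3 stood at 231, 249 and 197 CPM and at 229, 213 and 206 CPM. Napsa, an aspartic protease related to Ctse, had no read in WT26 and reached 123 CPM in HIP30, and Ctsd, the lysosomal relative, stood at 294, 161 and 189 CPM in wild type and 262, 164 and 167 CPM in HIP.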

How the data were processed

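The authors deposited 1 table per library with 15679 rows of gene symbols and log2 values. The submitters' processing notes name STAR, HTSeq, edgeR, limma and the build rn5, with neither versions nor order. Whether counting used strand is not given, and overlapping genes could not be separated. The deposited log2 values behaved as log2 CPM with 0.25 reads added at a library of mean size, and whole reads were recovered from them for 100% of entries within 0.1 reads. CPM in the text are on library totals. A count test had no deposited counts to run on, so limma 3.58.1 (R 4.3.3) with an intensity trend was fitted to log2 of TMM-scaled CPM plus 0.121 CPM (2 reads). This scale understates the change of low genes. TMM trims were 30% and 5%. A gene was tested (12102 were) with 15 reads in total and, in 3 libraries, the equivalent of 10 reads at the median size. The 4 rows of 2 repeated symbols were not used. Adjustment was by Benjamini-Hochberg and the threshold 0.05.

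The members and lists were chosen with earlier results of these data known. Some genes stand in more than 1 list. Named genes were the 10 members, up to 3 per list with the lowest unadjusted p and a mean of at least 1 CPM, relatives with at least 5 CPM, the 6 genes most like Gpa33, and defining markers of other cell types. Part of these is printed. Genes outside the rule, such as Slc10a2, Guca2b, Tff1, Tff2, Spdef, Retnlb, Fcgbp, Bcas1, Spink4, Pgc and Apoa4, were picked after their values were seen. On simulated reads for the 12102 genes the HIP comparison recovered 71% of the genes with a 4-fold change. It recovered 91% of those with a 16-fold change, and called 18 of 11902 genes without one. Genes were drawn independently, and their spread was capped, so highly variable genes such as Npc1l1 varied less than in the real libraries. The shares therefore do not show that changes of these sizes were absent. Alternatives covered scaling, pseudocount, filter, the deposited values, limma-voom, a term for the title numbers and leaving out libraries. The reads carry no molecular identifiers. All 10 members match a RefSeq symbol and 9 have an upstream window. Figures used matplotlib 3.10.9.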

Additional observations from a re-analysis of the deposited data

How the results depend on the processing

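Across 10 settings of scaling, pseudocount, filter, scale, model and title numbers, and with each library left out, limma called 0 genes. The smallest adjusted p ran from 0.0874 without HIP3 to 0.998 without HIP2, and at an unadjusted p under 0.05 the count of 792 went to 2388 with limma-voom and sample quality weights, 1781 without HIP3, 1557 without WT4 and to between 227 (without HIP2) and 326 (without WT26) without any other library. The Gpa33 difference ran from -2.90 to -2.65 over those settings and from -3.56 to -1.96 with libraries left out. Small differences changed sign. Tspan8 was -0.015 with limma-voom and quality weights, and ran from -0.17 without HIP30 to 0.33 without WT26, negative also without WT1 and WT4. Cdx2 ran from -0.38 without WT4 to 0.18 without WT26, and was 0.04 without HIP3. Gkn2 ran from -0.47 without WT26 to 1.33 without WT4. Gkn2 also moved with the pseudocount, from 0.39 with 5 reads to 1.28 with 0.5 reads, and to 1.65 on the deposited log2 values. The cause of these reversals was not tested. Without the filter Fabp1 and Fabp2 gave -2.03 and -0.09 (limma, adjusted p = 0.806 and 0.983), sizes that depend on the pseudocount because HIP30 had no read of Fabp1 and HIP2 none of Fabp2. No paired analysis was possible because the groups share no replicate number. Counts near 0 limit what can be read for Fabp1, Fabp2 and Gkn2.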
